A study of Mus musculus with 36 samples.

Results

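Immediate early response genes are the genes that a cell transcribes within minutes of a stimulus, from factors that are already present and without new protein synthesis. Many of their products are transcription factors, such as Fos and Jun, which pair to form the AP-1 complex, and others are phosphatases that shut off the kinase signal that induced them. In the brain, neuronal activity induces Arc, Npas4, Egr1 and Bdnf. The lesion maps described here ask how many single-strand DNA breaks (SSBs) and abasic sites (AP sites, sugar positions in DNA that have lost their base) lay in and near these genes.

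The set was a list of 41 named genes of the mouse, chosen by name from 49943 annotated genes and not by a rule on lesion density. The choice was made with earlier results of these data known, so it was not blind to them. Each gene was taken as its RefSeq span in GRCm38 plus 2 kb on each side. The study profiled 6 tissues (bone marrow, brain, heart, liver, peripheral blood mononuclear cells or PBMCs, and sperm) of male C57BL/6J mice aged 24 months, with no treatment and no genetic change named in the labels. Each tissue had 2 replicates, from 2 male mice, and each sample gave 1 SSB library made with SSiNGLe and 1 AP-site library made with SSiNGLe-AP, hence 24 libraries. PBMCs were gradient-purified, red cells of the marrow were lysed, and sperm were motile cells of the epididymal tail whose DNA was extracted with a kit of its own, so that tissue and extraction cannot be told apart for sperm. The files used here hold DNA lesions alone, and the labelled tissues were not checked against marker transcripts. The SSB libraries held 225011 to 1041983 lesion positions each and the AP-site libraries 460719 to 963258. The 2 libraries of any tissue and assay shared at most 0.396% of the smaller library's positions, so neither looked like a copy of the other. Libraries of different tissues or assays were not compared in this way.

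Lesion density is given as LPKM (lesions per kb of region, scaled by the total of the library), which is the number of lesion positions times 1e+09 over the product of the length in bp and the library's positions, and is written LPKM-SSB and LPKM-AP. The yardstick was 6322 protein-coding genes with a span of 1 to 10 kb that were not on the list, with the same 2 kb on each side. The listed genes spanned 1199 bp (Ier3) to 101373 bp (Homer1), of which 28 lay within 1 to 10 kb and 13 were longer. Together they held 3320 SSB positions (106 to 643 per library) and 4140 AP positions (203 to 463 per library). A single gene thus held a few positions per library, and differences in 1 gene between 2 libraries were mostly not detectable at this depth.

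The sequences in front of the annotated start are shown for 4 of the listed genes: Ier3 and Gadd45b, which had the highest SSB densities of the list, and the AP-1 partners Jun and Fos. Each line gives the 250 bases before the start, 5′ to 3′ on the strand of the gene, from RefSeq (GRCm38.p6). A capital marks a base at which a lesion position was recorded on either strand in any of the 12 libraries of the assay named.
Ier3 (chr17:35821463-35821712, plus strand), SSBs: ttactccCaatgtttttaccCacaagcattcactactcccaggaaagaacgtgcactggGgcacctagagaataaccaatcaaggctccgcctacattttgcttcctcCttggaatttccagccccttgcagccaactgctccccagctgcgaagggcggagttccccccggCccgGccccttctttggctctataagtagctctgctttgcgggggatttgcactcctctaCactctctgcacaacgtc
Ier3, AP sites: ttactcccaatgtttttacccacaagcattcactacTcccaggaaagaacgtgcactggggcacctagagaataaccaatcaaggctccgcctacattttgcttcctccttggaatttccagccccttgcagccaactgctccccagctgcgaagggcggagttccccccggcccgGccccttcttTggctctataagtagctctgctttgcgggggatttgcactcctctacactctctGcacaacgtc
Gadd45b (chr10:80929841-80930090, plus strand), SSBs: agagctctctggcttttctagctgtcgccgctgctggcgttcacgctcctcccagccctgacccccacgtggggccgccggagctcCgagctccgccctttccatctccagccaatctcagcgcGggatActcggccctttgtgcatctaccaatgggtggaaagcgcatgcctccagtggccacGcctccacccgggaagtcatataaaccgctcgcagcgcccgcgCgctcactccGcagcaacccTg
Gadd45b, AP sites: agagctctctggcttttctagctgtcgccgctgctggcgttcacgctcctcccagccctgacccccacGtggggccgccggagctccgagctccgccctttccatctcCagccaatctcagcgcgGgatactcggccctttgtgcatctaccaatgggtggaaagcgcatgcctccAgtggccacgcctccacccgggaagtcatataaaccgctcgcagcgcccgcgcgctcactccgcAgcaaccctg
Jun (chr4:95052223-95052472, minus strand), SSBs: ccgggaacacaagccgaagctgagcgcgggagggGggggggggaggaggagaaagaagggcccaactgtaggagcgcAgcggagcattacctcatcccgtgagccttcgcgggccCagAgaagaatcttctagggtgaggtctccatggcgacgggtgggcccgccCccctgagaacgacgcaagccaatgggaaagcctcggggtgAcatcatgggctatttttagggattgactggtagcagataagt
Fos (chr12:85473640-85473889, plus strand), SSBs: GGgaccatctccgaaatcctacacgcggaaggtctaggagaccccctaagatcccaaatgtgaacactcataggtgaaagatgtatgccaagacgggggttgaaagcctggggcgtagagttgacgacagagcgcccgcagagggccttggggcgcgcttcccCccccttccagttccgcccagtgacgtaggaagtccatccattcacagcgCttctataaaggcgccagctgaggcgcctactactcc

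In the Ier3 sequence all 7 bases with a break were C or G, as were all 4 in Fos, 5 of 7 in Gadd45b and 3 of 6 in Jun. The AP positions of Ier3 fell on 4 bases, 2 of them C or G, and those of Gadd45b on 5 bases, 3 of them C or G. A promoter entry, and with it the strand, was at hand for 34 of the 41 genes. Where a gene had several entries, the outermost start was used here and below, so that its other starts were not described. Over the 300 bases from 250 before to 50 after the start of these 34 genes, 118 SSB positions were recorded, and 81.4% of them named a C or a G, where C and G made up 64.1% of the bases. Over 27025 promoters of all genes the same share was 74.6%, with 53.6% C and G among the bases. The base before an SSB was a C in 61.9% of the positions in the listed genes and in 55.7% over all promoters. AP positions instead named a purine, in 72.2% of 90 positions in the listed genes and 74.8% over all promoters. The base preferences of the 2 lesions in these promoters were near those of promoters in general. The offset between a recorded position and the lesion itself is not given in the sources used here, so these shares describe the recorded base.

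The promoters of the listed genes were rich in C and G, with a median of 64.2% against 54.0% in the short protein-coding genes, and 29 of the 34 reached 58.3%. Short genes at or above this share, 1718 in number, are called GC-rich below. The GC box GGGCGG, the core of sites that Sp1 binds, was found on either strand in 25 of 34 listed promoters (73.5%) and in 35.9% of all 27025. The cAMP response element TGACGTCA, bound by CREB, was in 2 of 34 (Btg2 and Dusp1, 5.88%) against 1.85% of all, and the CArG box of serum response factor in 2 of 34 (Dusp5 and Zfp36, 5.88%) against 1.59%. The AP-1 site TGACTCA was in 0 of the 34 windows and in 5.17% of all promoters. None of these strings contains another, and a match says only that the letters are present.

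SSBs were denser over the listed genes than over the short genes in every library, and AP sites in nearly every one. LPKM-SSB was 0.960 ± 0.128 (SD, n = 12 libraries) over the listed genes and 0.752 ± 0.0864 over the short genes, a ratio of 1.28 ± 0.111 with a range of 1.08 to 1.45 that lay above 1 in 12 of 12 libraries. LPKM-AP was 0.755 ± 0.0707 against 0.676 ± 0.0424, a ratio of 1.12 ± 0.0908 with a range of 0.976 to 1.28 that lay above 1 in 11 of 12 libraries. The ratio was higher for SSBs than for AP sites in 11 of 12 samples, by 0.159 ± 0.139, and liver replicate 1 was the exception. The listed genes were chosen as a list, and these ratios carry no test.

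**Figure D1:**
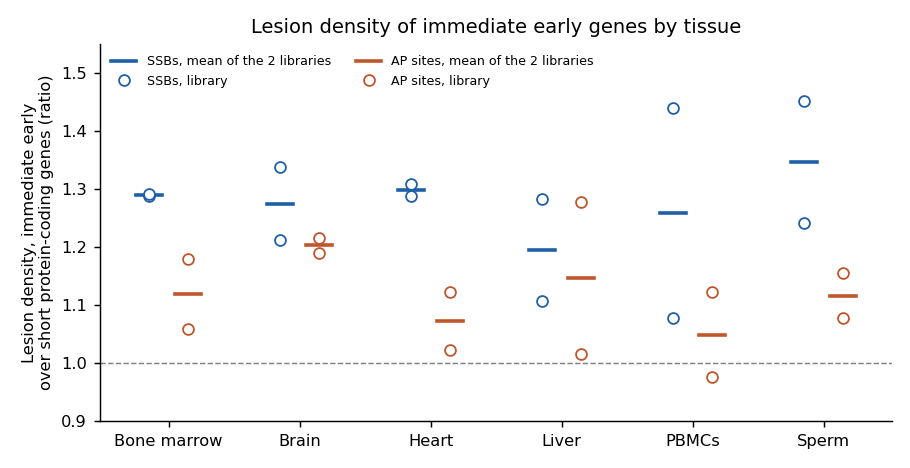
The plot of density ratios by tissue shows, for each of the 24 libraries (open circles), the lesion density of the 41 listed genes divided by that of the 6322 short protein-coding genes on the y axis, with the mean of the 2 libraries of a tissue as a bar and SSBs in blue, AP sites in orange. All 12 SSB libraries lie between 1.08 and 1.45 and the AP libraries between 0.976 and 1.28, and the 2 libraries of PBMCs or of liver lie as far apart as most tissues do.

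The size of this excess turned on the genes set beside it. Against the 1718 GC-rich short genes the listed genes stood near 1 in SSBs, at a ratio of 1.0036 ± 0.0950, and at 0.945 ± 0.0855 in AP sites. When the 13 listed genes over 10 kb were also left out, so that 28 short listed genes were set against those 1718, the SSB ratio became 1.34 ± 0.139, above 1 in 12 of 12 libraries, and the AP ratio 1.06 ± 0.0794, above 1 in 9 of 12. With the 2 kb flanks left off both sets, SSBs gave 1.05 ± 0.129 and AP sites 0.977 ± 0.0938. The parts that gene length and base composition play in the excess were not tested.

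Taken gene by gene, 36 of the 41 listed genes lay above the median LPKM-SSB of the short genes, with a median of 1.25 against 0.764 for the short genes and 0.506 for all genes. For AP sites 34 of 41 did so, with a median LPKM-AP of 0.859 against 0.699 and 0.505. The densities that follow sum the 12 libraries of an assay and carry an exact 95% Poisson interval, which covers counting error only.

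The 5 genes of growth arrest and cell survival were the densest group in SSBs, at an LPKM-SSB of 1.70 ± 0.607 over the 12 libraries, but not in AP sites, at 0.815 ± 0.185. Ier3, which modulates cell survival under stress, had the highest LPKM-SSB of all 41 genes, 2.02 (interval 1.53 to 2.61, 58 positions), and ranked 39 of 41 in LPKM-AP, at 0.589 (0.388 to 0.856, 27 positions). Gadd45b, a stress-induced partner of kinases and of the DNA demethylation machinery, ranked 2 in both assays, with 1.96 (1.51 to 2.49) for SSBs and 1.26 (0.979 to 1.60) for AP sites. Its relative Gadd45g had an LPKM-SSB of 1.81 (1.38 to 2.34) and an LPKM-AP of 0.938 (0.691 to 1.24). In Gadd45g the bone marrow replicate 2 stood at 6.57, while the median of the 12 SSB libraries was 1.50.

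The 7 phosphatases and signal inhibitors had the highest group density of AP sites, an LPKM-AP of 1.03 ± 0.149, next to an LPKM-SSB of 1.26 ± 0.294. Dusp1, a phosphatase that inactivates MAP kinases in the nucleus, led the AP list with an LPKM-AP of 1.43 (1.15 to 1.77), close to its LPKM-SSB of 1.45 (1.09 to 1.88). Dusp6, the phosphatase that acts on ERK in the cytoplasm, ranked 3 in SSBs at 1.95 (1.57 to 2.40). Sik1, a salt-inducible kinase, and Dusp5, a nuclear ERK phosphatase, ranked 4 and 5 in AP sites, at an LPKM-AP of 1.11 and 1.08. Rgs2, which speeds the turn-off of G proteins, was at the low end of SSBs at 0.761 (0.536 to 1.05).

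The 8 AP-1 and related bZIP factors had an LPKM-SSB of 1.14 ± 0.235 and an LPKM-AP of 0.870 ± 0.114. Jun stood at 1.82 (1.42 to 2.29) in SSBs and 1.07 (0.833 to 1.36) in AP sites, Junb at 1.74 (1.31 to 2.26) and 0.951 (0.703 to 1.26), and Fos at 1.52 (1.17 to 1.95) and 0.859 (0.649 to 1.12). The region of Jun also holds the antisense gene Junos, whose lesions cannot be told apart from its own. Across the 12 libraries Fos ranged from 0.886 to 2.12 with a median of 1.45 in SSBs, and from 0.164 to 1.76 with a median of 0.851 in AP sites, so that the 2 ranges overlapped.

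The 7 zinc finger factors had an LPKM-SSB of 1.13 ± 0.246 and an LPKM-AP of 0.757 ± 0.142. Egr1, which is induced by growth factors and by synaptic activity, reached 1.52 (1.17 to 1.94) in SSBs and 0.950 (0.734 to 1.21) in AP sites. Egr4 lay far lower in SSBs, at 0.672 (0.431 to 1.0003, 24 positions), with an interval that does not meet that of Egr1. Klf4, a factor of epithelial cells and of pluripotency, ranked 37 of 41 in AP sites at 0.631 (0.471 to 0.827). The 7 other regulators of transcription had 1.17 ± 0.223 and 0.951 ± 0.118, among them the clock gene Per1, at 1.64 (1.41 to 1.91) in SSBs and 1.14 (0.985 to 1.32) in AP sites, and the neuronal factor Npas4, at 0.895 (0.738 to 1.07) and 0.913 (0.787 to 1.05).

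The 3 orphan nuclear receptors of the Nr4a family had 0.884 ± 0.152 in SSBs and 0.797 ± 0.0985 in AP sites, with Nr4a1 at 0.903 (0.751 to 1.08) and 0.892 (0.772 to 1.03). The 4 synaptic and secreted effectors were the lowest group in both assays, at 0.505 ± 0.125 and 0.459 ± 0.0756, and 2 of them are the longest genes of the list. Homer1, a scaffold of the postsynaptic density, was last in both assays at an LPKM-SSB of 0.359 (0.312 to 0.412) and an LPKM-AP of 0.324 (0.288 to 0.362). Bdnf, a neurotrophin, had 0.682 (0.593 to 0.780) and 0.601 (0.535 to 0.674), and Ptgs2, the inducible cyclooxygenase, 0.386 (0.252 to 0.566) and 0.585 (0.450 to 0.748). Arc, which tunes glutamate receptor traffic at synapses and spans 3490 bp, stood apart from the other 3 at 1.40 (1.07 to 1.81) in SSBs and 0.893 (0.680 to 1.15) in AP sites. Neighbours in the order of densities had overlapping intervals, except Ptgs2 and Homer1 at the low end of AP sites.

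**Figure D2:**
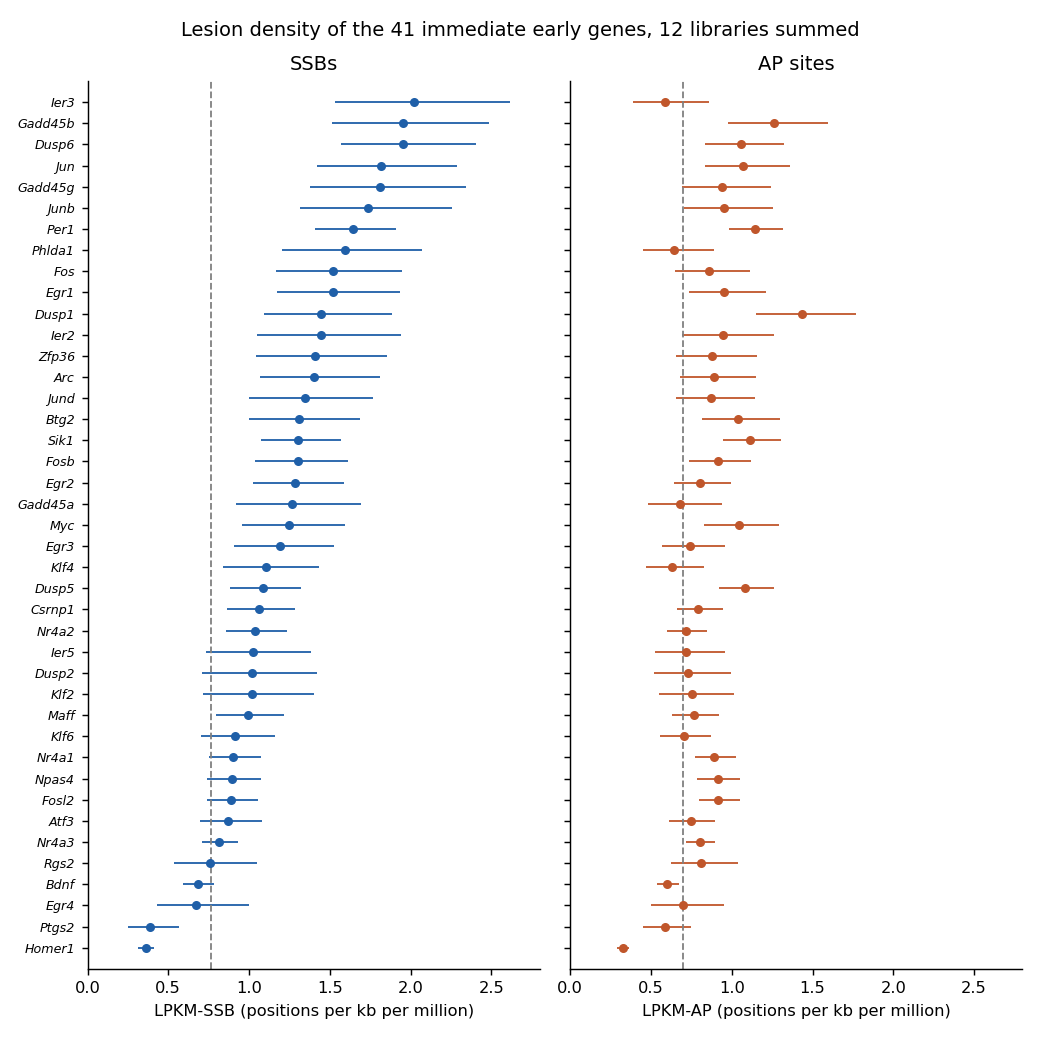
The plot of the 41 genes gives LPKM-SSB (left, blue) and LPKM-AP (right, orange) on the x axes, with genes ordered by LPKM-SSB, exact 95% Poisson intervals as bars, and the median of the short protein-coding genes as a dashed line. SSB densities run from 0.359 (Homer1) to 2.02 (Ier3) and AP densities from 0.324 (Homer1) to 1.43 (Dusp1), and the order in one assay is not the order in the other.

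Whether a gene carried more SSBs than AP sites was tested with edgeR's quasi-likelihood test over all 24 libraries and 47869 genes. The difference was taken relative to each library's total after TMM scaling, whereas LPKM uses the total alone. Each lesion was mapped with a method of its own, SSiNGLe or SSiNGLe-AP, so that lesion type and method cannot be told apart in this contrast. Of the listed genes, 3 of 41 passed an adjusted p of 0.05 (Benjamini-Hochberg over all genes), all with more SSBs. Over all genes 1.18% passed (567 genes), and 0.378% passed with more SSBs, against 7.32% of the listed genes. A further 12 listed genes had an unadjusted p under 0.05 without passing the adjustment, again all in the direction of SSBs, which makes 15 of 41 (36.6%) next to 11.8% of all genes in either direction. The median log2 difference of the listed genes was 0.37, that of all genes -0.07, and 35 of the 41 lay above the latter. As a set, the GC-rich short genes were also denser in SSBs, with an LPKM-SSB of 0.961 ± 0.142 and an LPKM-AP of 0.801 ± 0.0696. The listed genes stood at 0.960 and 0.755, so a lean to SSBs was not particular to them. Of all calls, 181 were higher in SSBs and 386 in AP sites under TMM scaling, while scaling by library totals gave 321 and 97, with 3 listed genes called next to 0.873% of all genes.

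Ier3 had the largest difference. Its LPKM-SSB in the 12 libraries ran from 0.690 over a median of 1.89 to 3.77, and its LPKM-AP from 0 over a median of 0.543 to 1.70. The SSB value exceeded the AP value in 12 of 12 samples, although the 2 ranges overlapped. In edgeR the log2 difference was 1.57 (SE 0.345, adjusted p = 0.00215). Most of the difference lay in its 2 kb flanks: the span itself held 10 SSB and 12 AP positions and the flanks 48 and 15. Of the flank positions, 28 SSBs and 9 AP sites lay within the span of the neighbouring gene Flot1, which encodes a membrane scaffold protein, and Flot1 itself had a log2 difference of 0.81 (SE 0.249, edgeR adjusted p = 0.0727). Without the flanks the log2 difference of Ier3 was 0.22 (edgeR adjusted p = 0.939), and without the flank positions inside Flot1 it was 1.12 (edgeR adjusted p = 0.238).

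Dusp6 showed a smaller difference in the same direction. Its LPKM-SSB ran from 0.525 over a median of 1.99 to 3.96, and its LPKM-AP from 0.263 over a median of 1.10 to 1.72. SSBs were above AP sites in 11 of 12 samples, with overlapping ranges, and the log2 difference was 0.86 (SE 0.241, edgeR adjusted p = 0.0374). Here too the span held no excess, with 28 SSB and 45 AP positions, while the 2 kb before its start held 42 and 19 and the 2 kb after its end 19 and 13. Without the flanks the log2 difference was 0.02 (edgeR adjusted p = 0.993), and without the positions that lie in Gm34921, a non-coding gene that overlaps the downstream side, it was 0.80 (edgeR adjusted p = 0.120).

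Phlda1, which encodes a pleckstrin-homology-like protein linked to cell death and growth signals, was the only one of the 3 with more SSB than AP positions in the span, 34 and 17, and it had 22 and 19 in the flanks. The SSB libraries held fewer positions in all than the AP libraries, so that both parts of Phlda1 were denser in SSBs relative to these totals. Its LPKM-SSB ran from 0 over a median of 1.13 to 2.87, its LPKM-AP from 0.190 over a median of 0.337 to 1.36, and SSBs were above AP sites in 8 of 12 samples. The log2 difference was 1.15 (SE 0.329, edgeR adjusted p = 0.0452), with the highest SSB values in both heart libraries and bone marrow replicate 1, and values of 0 in bone marrow replicate 2 and PBMC replicate 1. Within the span alone the log2 difference was 1.38 (edgeR adjusted p = 0.104).

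The SSB and AP libraries of a sample came from the same sample per the labels. With the sample as a block in edgeR, 1 listed gene was called, Ier3 (adjusted p = 0.00537), while Dusp6 had an adjusted p of 0.0558 and Phlda1 of 0.113, and 0.919% of all genes were called. Leaving out each sample in turn kept Ier3 past the threshold in 12 of 12 edgeR fits, Dusp6 in 6 and Phlda1 in 3. The calls of Dusp6 and Phlda1 were both lost without bone marrow replicate 1 or 2, heart replicate 2, liver replicate 2, PBMC replicate 2 or sperm replicate 2, and that of Phlda1 also without brain replicate 2, heart replicate 1 or liver replicate 1.

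**Figure D3:**
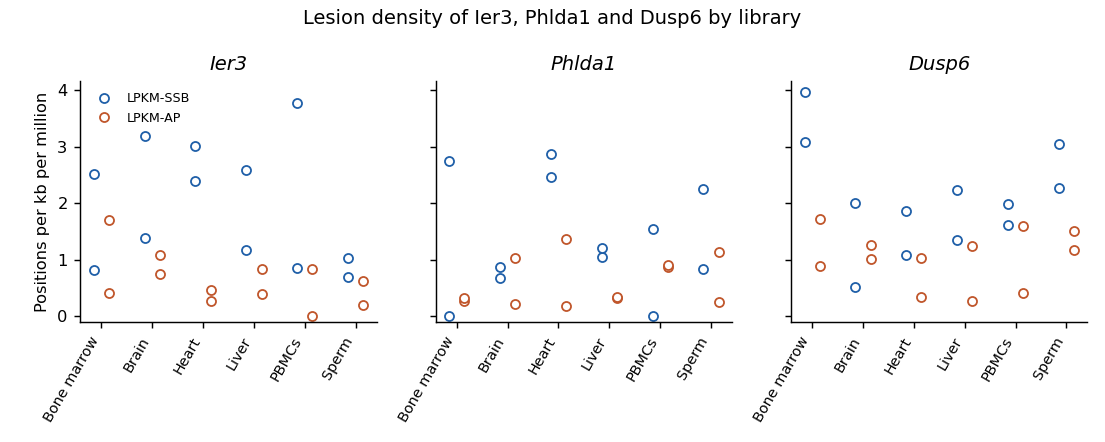
The plot by library gives the density of Ier3, Phlda1 and Dusp6 on the y axis, in LPKM, for each library of the 6 tissues, with LPKM-SSB in blue and LPKM-AP in orange. For Ier3 every SSB value lies above the AP value of its own sample, while the 2 libraries of a tissue differ widely, as in PBMCs at 0.85 and 3.77.

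**Figure D4:**
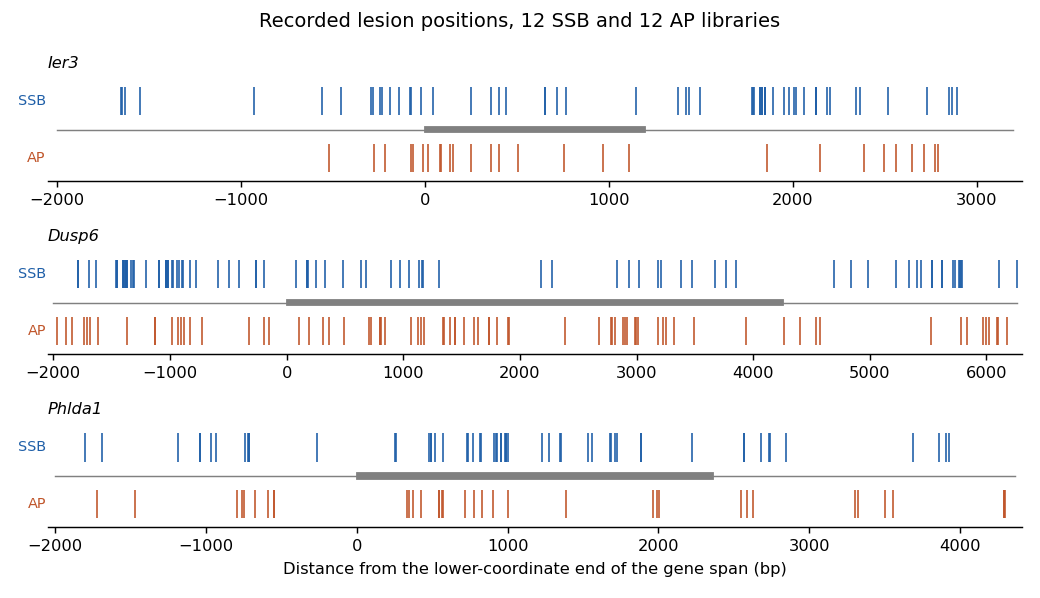
The map of recorded lesions draws each SSB (blue ticks above) and AP position (orange ticks below) of all 12 libraries per assay along Ier3, Dusp6 and Phlda1, with the gene span as a thick bar and 2 kb on each side, and the distance in bp from the lower-coordinate end of the span on the x axis. The SSBs of Ier3 gather on the higher-coordinate side, where 32 were recorded against 9 AP sites, those of Dusp6 on the lower-coordinate side, with 42 against 19, and Phlda1 has 34 SSBs and 17 AP sites within the span.

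Other members with well-known roles did not pass the adjusted threshold. The log2 difference between SSBs and AP sites was 0.83 (SE 0.304) for Gadd45g, with SSBs above AP sites in 10 of 12 samples, and 0.80 (SE 0.305) for Junb, also in 10 of 12 samples. It was 0.67 (SE 0.264) for Jun, 0.66 (SE 0.288) for Fos, 0.63 (SE 0.289) for Arc, 0.54 (SE 0.271) for Gadd45b and 0.53 (SE 0.274) for Egr1. The largest value in the direction of AP sites was that of Ptgs2, -0.63 (SE 0.352), with SSBs below AP sites in 8 of 12 samples. The adjusted p of these genes lay between 0.179 (Gadd45g) and 0.488 (Ptgs2) in edgeR. Npas4 at -0.12 (SE 0.181), Nr4a1 at -0.07 (SE 0.175), Dusp1 at -0.08 (SE 0.268), Bdnf at 0.05 (SE 0.138) and Homer1 at 0.04 (SE 0.139) were close to 0.

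The position of the lesions relative to the gene was described for the 34 listed genes with a strand. In the 2 kb upstream of the start the LPKM-SSB was 1.24 ± 0.340 (SD, n = 12), against 0.710 ± 0.115 for 5039 short genes with a strand and 0.998 ± 0.219 for the 1718 with GC-rich promoters. Within the span it was 0.853 ± 0.127, against 0.845 ± 0.0949 and 1.02 ± 0.142. In the 2 kb downstream it was 0.999 ± 0.218, against 0.634 ± 0.0636 and 0.817 ± 0.0973. The span values weigh genes by their length, so that the long genes of the list count for more in them than in the flanks. AP sites were spread more evenly, with an LPKM-AP of 0.737 ± 0.163 upstream, 0.741 ± 0.0847 within and 0.706 ± 0.108 downstream. The short genes had 0.581 ± 0.0336, 0.767 ± 0.0543 and 0.587 ± 0.0278, so the listed genes lay above them in the flanks but not in the span. The GC-rich genes had 0.726 ± 0.0634, 0.857 ± 0.0843 and 0.752 ± 0.0481.

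In bins of 250 bp the SSB density of the listed genes was 1.98 ± 1.15 in the bin just before the start, where the short genes had 1.35 ± 0.433 and the GC-rich ones 1.903 ± 0.813. In the 8 bins of the first 2000 bp after the start the listed genes ranged from 1.16 to 1.99, and the short genes from 0.756 to 1.36. The GC-rich ones ranged from 0.925 to 1.74 there, and in the first of these bins they stood at 1.74 against 1.69 for the listed genes. Farther out, from 2000 to 1000 bp before the start, the listed genes ranged from 0.968 to 1.52 and the short genes from 0.530 to 0.561. The GC-rich ones ranged from 0.699 to 0.792 in that stretch. Within the gene span, 54.2% ± 4.52 of SSB positions were on the strand of the gene, against 52.7% ± 0.684 in the short genes, and 51.3% ± 2.63 of AP positions, against 49.3% ± 0.672. These strand shares differed from those of the short genes by less than the spread between libraries. Which strand a recorded position names, the broken one or the one read, is not given in the sources used here.

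**Figure D5:**
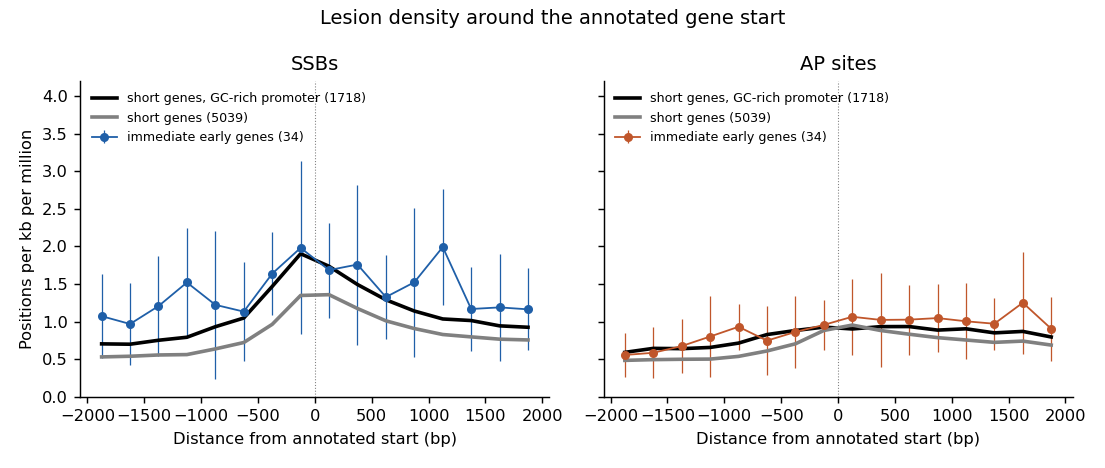
The plot around the annotated start gives lesion density on the y axis, in LPKM, in bins of 250 bp from 2000 bp before to 2000 bp after the start on the x axis, for the 34 listed genes (mean and SD of 12 libraries), the 5039 short genes (grey) and the 1718 with GC-rich promoters (black). SSB density is highest beside the start in both sets of short genes, while the listed genes reach 1.98 just before the start and 1.99 in the bin from 1000 to 1250 bp after it. In AP sites the listed genes lie on both sides of the GC-rich genes before the start. After it they lie above the GC-rich genes in every bin, as at 1.06 ± 0.503 against 0.902 in the first, by less than the SD of the listed genes.

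Differences between tissues in the SSB ratio were no larger than the spread between the 2 PBMC libraries. The SSB ratio of listed to short genes was 1.29 in bone marrow, 1.27 in brain, 1.30 in heart, 1.20 in liver, 1.26 in PBMCs and 1.35 in sperm, and the SD of the 2 libraries reached 0.257 in PBMCs. LPKM-SSB itself was highest in bone marrow, 1.17 ± 0.0797, where the short genes were highest too, at 0.904. For AP sites the ratio was highest in brain, 1.20 ± 0.0181, next to 1.12 in bone marrow, 1.07 in heart, 1.15 in liver, 1.05 in PBMCs and 1.12 in sperm. The AP ratio of brain exceeded the mean of the other tissues by 0.103, and that of SSBs differed by -0.0029, a difference smaller than the spread between libraries.

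No listed gene passed the adjusted threshold in a test across the 6 tissues. For SSBs 0 of 41 were called in edgeR, where 0.0341% of all genes were (16 of 46890), and 5 of 41 had an unadjusted p under 0.05, next to 4.89% of all genes. In AP-site libraries 0 of 41 were called as well, where 0.00209% of all genes were (1 of 47830), and 3 fell under 0.05 unadjusted, next to 3.11% of all genes. The tests of a tissue difference that itself differed between the 2 lesions called 0 of 41, where 0.00418% of all genes were called. Before adjustment 2 of 41 (4.88%), Ier2 and Per1, fell under 0.05, next to 4.41% of all genes. DESeq2 and all other alternatives likewise called 0 listed genes across tissues.

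Brain was of interest because neuronal activity induces many of these genes, and it was set against the other 5 tissues. In edgeR 0 of 41 were called for SSBs and 0 for AP sites, and 0% of all genes passed in either assay. Before adjustment 2 of 41 fell under 0.05 in SSBs (4.55% of all genes) and 4 of 41 in AP sites (4.50% of all genes). The 4 all had more AP sites in brain. Junb had an LPKM-AP of 1.79 and 1.92 in the brain libraries, above the 10 libraries of the other tissues, and a log2 difference of 1.43 (SE 0.505). Per1 followed at 2.00 and 1.49 with a log2 difference of 0.80 (SE 0.263), Dusp1 at 1.52 and 2.65 with 0.80 (SE 0.404), and Nr4a2, a receptor required by dopaminergic neurons, with 0.78 (SE 0.313). All 4 had an edgeR adjusted p of 0.99995. In SSBs, Ptgs2 was higher in brain, with a log2 difference of 1.51 (SE 0.694), and Dusp6 lower, with -1.05 (SE 0.479), both with an edgeR adjusted p of 0.980. The value of Dusp6 was -0.14 without brain replicate 2 and -1.95 without brain replicate 1, and that of Ptgs2 was 2.47 without liver replicate 2. In AP sites Dusp1 was at 0.33 without brain replicate 2 and at 0.03 without the flanks. Arc and Npas4, both induced in neurons, had log2 differences in AP sites of 0.43 (SE 0.505) and 0.18 (SE 0.290), neither under 0.05 before adjustment. The median log2 difference of the listed genes in AP sites was 0.23 in brain, that of all genes 0.08, and 29 of 41 lay above the latter. Without brain replicate 1 the former was 0.08 with 22 of 41 above the median of all genes. For SSBs the median was 0.05 against 0.11 with 18 of 41 above, but 0.28 against 0.15 with 25 of 41 above without the flanks, and 0.09 against -0.02 with 24 of 41 above without brain replicate 2. Brain gave the highest mean LPKM-AP in 15 of 41 genes and the highest LPKM-SSB in 6, while bone marrow gave the highest LPKM-SSB in 15. The same counts were not made over other genes, so these have no background share. The short genes as a set were densest in bone marrow for SSBs, at 0.904. For AP sites they were densest in bone marrow at 0.720, with brain next at 0.696.

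Mature sperm are largely silent in transcription, and sperm was also set against the other 5 tissues. In edgeR 0 of 41 were called for SSBs, where 0.0128% of all genes were, and 0 of 41 for AP sites, where 0% were. An unadjusted p under 0.05 was found for 3 of 41 in SSBs (7.32%), next to 5.63% of all genes. In AP sites it was found for 2 of 41 (4.88%), next to 4.04% of all genes. The log2 difference in SSBs was above 0 in 16 of 41 genes, with a median of -0.18 against -0.01 for all genes and 16 of 41 above the latter. Without the flanks the median was 0.12 against -0.02 with 24 of 41 above, and without sperm replicate 1 it was -0.13 against -0.15 with 22 of 41 above. Ier2, whose product is a small nuclear regulator, had an LPKM-SSB of 0 in both sperm libraries and of 0 to 2.78 in the other 10, with an unadjusted p of 0.00673 (edgeR adjusted p = 0.718). Egr1 stood at 0 and 0.93 in sperm, and Nr4a1 at 0.54 and 0.29, with log2 differences of -1.83 (SE 0.853) and -1.06 (SE 0.517) and edgeR adjusted p of 0.874 and 0.884. The value of Egr1 was -0.66 without sperm replicate 1, -5.51 without sperm replicate 2 and 0.21 without the flanks, and that of Nr4a1 was -1.61 without sperm replicate 1. In AP sites Junb was higher in sperm, at 1.60 and 1.38 (log2 difference 1.07, SE 0.519), as was Csrnp1 (0.69, SE 0.322), with an edgeR adjusted p of 0.99981 each.

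The genes that turn the set on were described as a list of 24: serum response factor and its partners, CREB and its coactivators, MEF2 factors and the kinases of the MAP kinase and calcium pathways. These genes are long, with an LPKM-SSB of 0.508 ± 0.0351 and an LPKM-AP of 0.458 ± 0.0220, well under the listed genes. Between SSBs and AP sites 0 of the 24 were called by edgeR, where 1.18% of all genes were, and 0 had an unadjusted p under 0.05. Their median log2 difference was 0.07. Across tissues edgeR called 0 of the 24 in SSBs (0.0341% of all genes) and 0 in AP sites (0.00209%). Before adjustment 6 fell under 0.05 in SSBs, next to 4.89% of all genes, and 2 in AP sites, next to 3.11%. In brain against the other tissues 0 were called in either assay (0% of all genes). There 6 fell under 0.05 unadjusted in SSBs, 5 of them higher in brain (4.55% of all genes), and 1 in AP sites (4.5%).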

How the data were processed

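SSB and AP-site libraries of 6 tissues, 2 replicates each, were used, and RNA samples were not analysed here. The authors deposited, per library, a list of lesion positions of 1 base each, with the strand and the raw count, neither normalized nor pooled. Per the submitters' processing notes the build was mm10 (GRCm38). RSEM 1.2.28 is also listed there, and the aligner of the lesion reads is not given in the sources used here. The other files of the series and other ages were not analysed here.

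A position entered once whatever its count, because 0.140% to 1.23% of the positions of a library had a count above 1. Positions on either strand in the RefSeq span (GRCm38.p6) plus 2 kb were counted for 49943 genes of the autosomes and of both sex chromosomes. LPKM was 1e+09 times this number over the length in bp and the library's positions. A position in overlapping regions counted for each gene. Another gene lay within the region of 18 listed genes. The annotation used here has no exons, and no strand for 7 listed genes (Egr1, Egr3, Arc, Sik1, Phlda1, Ier2 and Myc).

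Tests were edgeR 4.0.16 (R 4.3.3) quasi-likelihood fits over genes nonzero in at least 20% of libraries, with TMM factors. Library size was the total of positions, and adjustment (Benjamini-Hochberg) ran over all genes with a threshold of 0.05. The SSB against AP fit had terms for assay and tissue over 24 libraries, with their combination added for the test of tissue differences that differ, and tissue fits used 12 libraries per assay. The SE of a log2 difference was taken as its size over the root of the F statistic. DESeq2 1.42.0 was an alternative. The fits were tested on simulated data in which 200 genes, with more positions than most listed genes, were changed 4-fold. How well the fits recover smaller differences, or differences in genes with few positions, was not tested. Densities were computed in Python 3.11.15 with pandas 2.3.3, intervals with scipy 1.17.1, and figures drawn with matplotlib 3.10.9. The labels do not tie replicate numbers to an animal across tissues, and same-numbered libraries did not deviate together (correlations of -0.109 to 0.0718 between tissues). SSB and AP libraries of a number share a sample per the labels, though their deviations did not correlate (-0.0044 to 0.0152 over 6 tissues). Since libraries known to share a sample gave values near 0, the check cannot show whether same-numbered libraries share an animal. With 2 animals, p-values measure the spread between these samples.

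The members and lists were chosen with earlier results of these data known. Genes were named where they passed the threshold in any test, were among the 5 highest or 5 lowest in LPKM of an assay or the 5 largest differences between SSBs and AP sites, or belonged to 11 well-known members. Klf4, Rgs2, Egr4, Sik1 and Dusp5 came in by density, and Nr4a2, Ier2, Csrnp1, Btg2, Zfp36 and Flot1 were named after their values were seen.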

Additional observations from a re-analysis of the deposited data

How the results depend on the processing

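The calls and densities rested on few positions per gene, which limits what 1 gene can show. The density ratio stayed at 1.26 to 1.30 for SSBs and 1.10 to 1.13 for AP sites without any 1 sample, and on the summed counts or without receptor gene families it moved by less than the spread between libraries. It moved by more for the span without flanks (1.05 for SSBs and 0.977 for AP sites), for listed genes of 1 to 10 kb only (1.70 and 1.25), against all protein-coding genes (1.87 and 1.48) and against genes with GC-rich promoters (1.0036 and 0.945, chosen after seeing the data). The brain difference ranged without 1 sample from -0.0652 to 0.0594 for SSBs and from 0.0887 to 0.122 for AP sites. Between SSBs and AP sites the 3 called genes became 0 for the span without flanks, 0 after thinning to 225011 positions per library (18 calls over all genes), 1 with the replicate block by sample, 1 without flank positions inside other genes (Phlda1, chosen after seeing the data), and 1 to 3 without 1 sample. DESeq2 called 0 listed genes, with 195 calls over all genes, an unadjusted p under 0.05 in 14 listed genes and an adjusted p of NA in 38 of the 41, including all 3. The number of tissue calls among the listed genes was 0 under every alternative, the replicate block included.

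Log2 differences near 0 changed sign, the cause of which was not tested. Between SSBs and AP sites these were Dusp1 (0.0045), Egr4 (0.0199), Nr4a1 (0.0381) and Rgs2 (0.0641) with library totals, Bdnf (-0.0712), Egr4 (0.295), Nr4a1 (0.0188) and Rgs2 (0.0879) without flanks, Dusp5 (0.10), Egr4 (0.54) and Homer1 (-0.15) after thinning, and Dusp1 (0.0111) and Rgs2 (0.121) without positions inside other genes. Without 1 sample Bdnf ranged from -0.0740 to 0.0924, Egr4 from -0.349 to 0.167, Homer1 from -0.0345 to 0.117 and Rgs2 from -0.233 to 0.0552. Junb in AP sites of sperm was -0.90 after thinning, and Egr1 in SSBs of sperm was 0.21 without flanks.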

Other observations

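A list of 32 relatives of the listed genes that are not themselves on the list, among them Fosl1, Klf9, Dusp4, Per2, Homer2 and Sik3, had an LPKM-SSB of 0.712 ± 0.0602 and an LPKM-AP of 0.699 ± 0.0392 (SD, n = 12 libraries). Between SSBs and AP sites, 2 of the 32 were called by edgeR, where 1.18% of all genes were. Dusp4, a nuclear MAP kinase phosphatase, had more SSBs, with a log2 difference of 0.75 (SE 0.187, edgeR adjusted p = 0.0126), and Sik3, a salt-inducible kinase, had fewer, with -0.31 (SE 0.0807, edgeR adjusted p = 0.0183). The median log2 difference of the 32 was 0.0021, and -0.07 over all genes. Across tissues 0 of the 32 were called for either lesion.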
